A study of Mus musculus with 6 samples.

Results

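The 10 genes described here encode enzymes of nitric oxide signalling and of the breakdown of its second messenger, cyclic GMP: the nitric oxide synthases Nos1, Nos2 and Nos3, the hydrolases Ddah1 and Ddah2, the kinase Prkg1 and the phosphodiesterases Pde2a, Pde3a, Pde5a and Pde9a. They were chosen by name, with earlier results of these data known, and all 10 were found among the 18019 NCBI gene IDs of the deposited table. Levels are in FPKM (sequenced fragments divided by gene length in kilobases and by library size), from RNA sequencing of heart tissue from mice labelled WT, 8 weeks after transverse aortic constriction (TAC), which overloads the left ventricle. The 3 VNS-TAC libraries came from mice whose dorsal vagal motor nucleus had been injected with rAAV-ChAT-hChR2[H134R]-GFP, a virus in which the choline acetyltransferase promoter drives a light-activated channel, which served to activate the preganglionic neurones of the vagus. The 3 Ctrl-TAC libraries came from mice given rAAV-ChAT-GFP, and both groups had undergone TAC. No group without TAC was analysed here, and the sources used here give no sex, age or light protocol. Library numbers are those of the table's columns. Whether every library stands for its own animal is not stated in the labels, so p-values reflect only how these libraries spread, which can be technical.

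Nitric oxide synthases make nitric oxide from arginine. Nos3 is the synthase of endothelium, Nos1 that of neurones and striated muscle, and Nos2 the form induced by inflammatory signals. Ddah1 and Ddah2 belong to the family that degrades asymmetric dimethylarginine, an endogenous inhibitor of the synthases. Nitric oxide activates soluble guanylyl cyclase, which makes cyclic GMP, and cyclic GMP activates the protein kinase encoded by Prkg1. Phosphodiesterases end the signal: Pde5a and Pde9a encode enzymes selective for cyclic GMP, Pde2a a dual enzyme stimulated by cyclic GMP, and Pde3a a dual enzyme whose breakdown of cyclic AMP is inhibited by cyclic GMP. In the heart this pathway relaxes vessels and counters hypertrophic and beta-adrenergic signals.

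No member passed the threshold of 0.05 after Benjamini-Hochberg adjustment over all genes in limma, and neither did any other of the 11422 genes tested (0%). In 5 of the 10 members, Nos1, Nos3, Ddah1, Prkg1 and Pde5a, all 3 VNS-TAC values lay below all 3 Ctrl-TAC values. Of the 17655 genes detected in any library, 14.8% were lower without overlap. No member had all VNS-TAC values above all Ctrl-TAC values, a pattern of 6.1% of those genes, so that 20.9% did not overlap in either direction. Among the 11422 genes with a mean of 1 FPKM or more, the shares were 17.4% lower, 8.01% higher and 25.4% in either direction, and 3 of the 8 members in that set (Nos3, Ddah1 and Prkg1) were lower without overlap. The groups overlapped for Nos2, Ddah2, Pde2a, Pde3a and Pde9a. Mean FPKM was lower in VNS-TAC for 8 members and higher for Pde2a and Pde9a, and 60.8% of the 17655 genes had a log2 fold change below 0 (61.8% of the 11422).

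Among the 8 members at or above a mean of 1 FPKM, Ddah1 and Prkg1 had an unadjusted limma p under 0.05, both lower, beside 11.3% of all genes tested that were lower at that p and 3.79% that were higher, or 15% in either direction. That background depended on the scaling of the libraries, with 433 genes higher and 1286 lower as deposited, 906 and 794 after rescaling by size factors, 907 and 759 after quantile normalization, and 213 and 1767 after rescaling to the same sum. Nos1 and Pde5a had means under 1 FPKM, so their values come from a fit with no such filter, where 10.3% of genes were lower, 3.31% higher and 13.6% either at an unadjusted p under 0.05. Both were lower at that p. Over all genes tested, the median log2 fold change was -0.08.

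Libraries of Ctrl-TAC were alike, with Pearson correlations across genes of 0.988 to 0.992, against 0.941 to 0.979 among the VNS-TAC libraries, of which VNS-TAC 1 and VNS-TAC 3 were the least alike. How far a gene lay from its mean in VNS-TAC 1 followed its GC content (Spearman's rho over genes, which are not replicates, 0.565). Ctrl-TAC 1 and 2 went the other way, at -0.317 and -0.431, and the other libraries had rho between -0.108 and 0.023. The log2 fold change between the groups had a rho of 0.39 with GC content and -0.234 with exon length. Depth, estimated from the spacing of low FPKM values, was roughly 13980000 to 16560000 fragments.

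**Figure D1:**
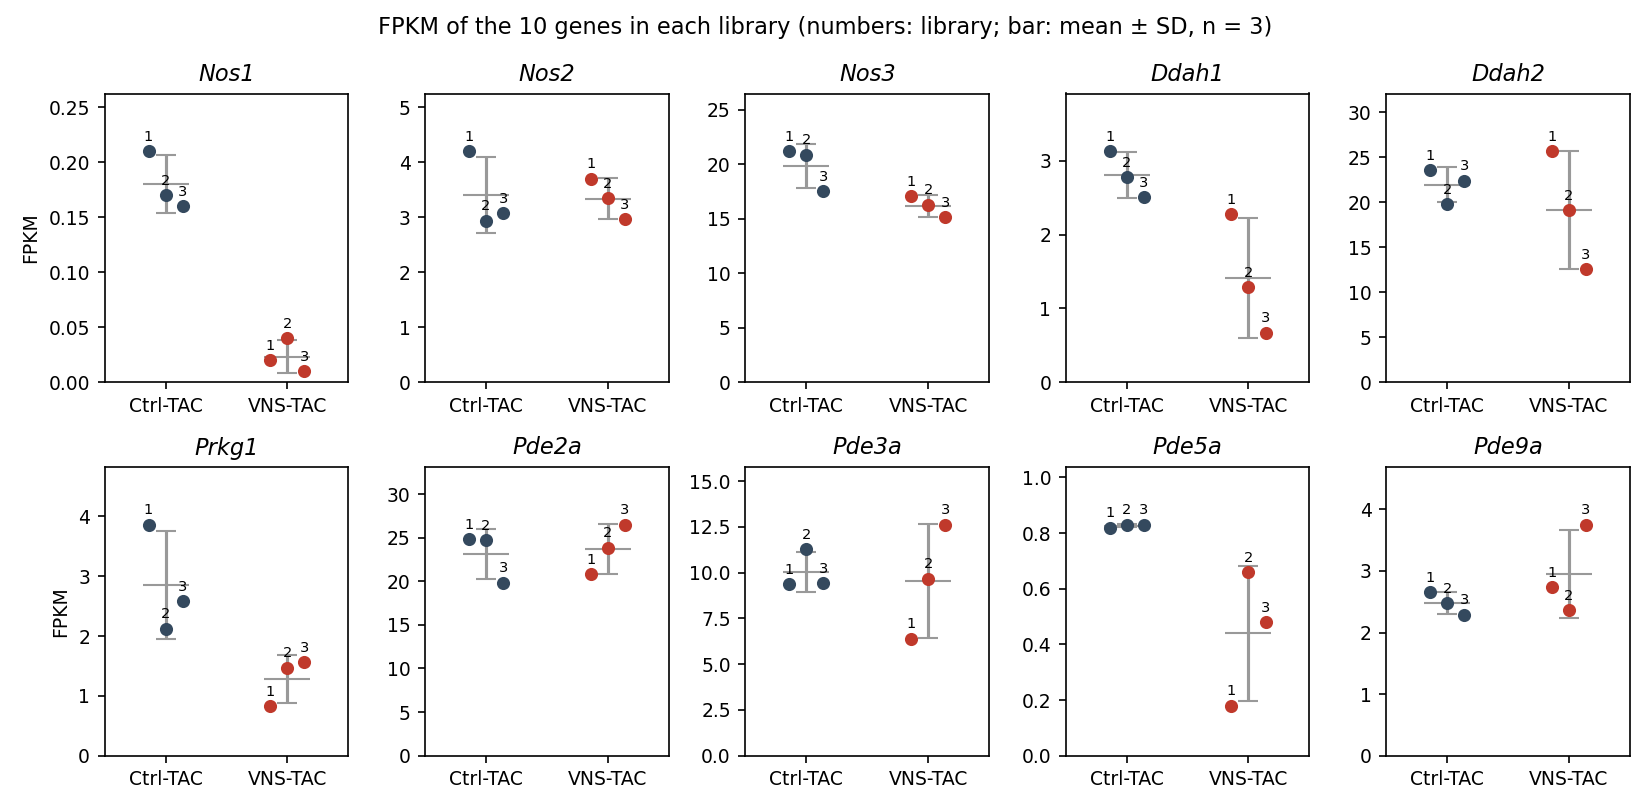
FPKM of each of the 10 genes (vertical axes, starting at 0, with a scale of their own per gene) in the 3 Ctrl-TAC and 3 VNS-TAC libraries. Points are libraries with their number, and the grey bars are the mean ± SD of 3 libraries. For Nos1, Nos3, Ddah1, Prkg1 and Pde5a the VNS-TAC points all lie below the Ctrl-TAC points, and for the other genes the groups overlap.

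Prkg1 has a pair of start sites far apart that the FPKM of the gene cannot separate. Promoter sequences are shown for members lower without overlap whose windows held at least 200 bases before any annotated exon. The sequences so chosen are those of Prkg1, Ddah1 and Nos1. They were read from RefSeq promoter windows on GRCm38.p6, which held entries for 6 of the 10 members, as the stretch of up to 250 bases before the start that lies outside annotated exons, 5′ to 3′ on the strand of the gene. Nos2, Nos3, Pde3a and Pde9a had no entry. Capitals mark matches on either strand to CACCC (a KLF-type motif) or GGGCGG (an Sp1-type motif).
Prkg1, upstream start site, chr19:31765034-31765283, minus strand: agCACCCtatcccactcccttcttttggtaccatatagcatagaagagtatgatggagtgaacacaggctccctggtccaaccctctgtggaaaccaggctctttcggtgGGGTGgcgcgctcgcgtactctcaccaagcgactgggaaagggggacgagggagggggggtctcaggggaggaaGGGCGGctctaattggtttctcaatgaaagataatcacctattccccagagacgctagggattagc
Prkg1, downstream start site, chr19:31664371-31664620, minus strand: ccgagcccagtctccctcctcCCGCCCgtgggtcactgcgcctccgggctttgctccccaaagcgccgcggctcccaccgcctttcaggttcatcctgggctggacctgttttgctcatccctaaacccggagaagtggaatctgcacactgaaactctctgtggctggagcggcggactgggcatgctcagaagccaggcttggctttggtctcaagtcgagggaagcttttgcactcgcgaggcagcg
Ddah1, chr3:145758442-145758674, plus strand: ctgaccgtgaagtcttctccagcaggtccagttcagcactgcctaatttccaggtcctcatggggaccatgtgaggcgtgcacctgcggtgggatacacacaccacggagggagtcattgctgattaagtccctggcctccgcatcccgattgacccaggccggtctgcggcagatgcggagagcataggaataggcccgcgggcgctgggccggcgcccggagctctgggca
Nos1, chr5:117866589-117866838, plus strand: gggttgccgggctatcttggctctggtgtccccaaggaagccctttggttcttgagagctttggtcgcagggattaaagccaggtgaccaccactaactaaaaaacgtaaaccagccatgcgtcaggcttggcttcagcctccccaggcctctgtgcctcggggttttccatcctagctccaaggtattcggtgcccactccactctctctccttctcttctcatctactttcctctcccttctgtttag

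The upstream window of Prkg1 held 2 CACCC matches and 1 GGGCGG match, and the downstream window 1 GGGCGG match and no CACCC. The windows of Ddah1 and Nos1 held neither. Pde5a, whose window lies largely in annotated exons and is not printed, held 1 match to each. TATAAA, TGACGTCA and CACGTG were searched in the same way and were not found in these windows. Of all 32851 windows of this length, 52% held CACCC, 32.7% GGGCGG, 12.4% TATAAA, 1.55% TGACGTCA and 6.02% CACGTG. Each motif was searched on both strands. These are matches of letters and say nothing of binding.

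By level per kilobase, Pde2a, Ddah2 and Nos3 led in both groups. In Ctrl-TAC they stood at means of 23.1, 21.9 and 19.9 FPKM, and neighbours in that order overlapped. Pde3a followed at 10.03 FPKM, separated from Nos3 above and Nos2 below. Nos2, Prkg1, Ddah1 and Pde9a lay between 3.40 and 2.47 FPKM, each overlapping with the next. Pde5a at 0.83 and Nos1 at 0.18 FPKM were the lowest and overlapped with no neighbour. In VNS-TAC Pde9a stood above Ddah1 and Prkg1, at 2.95 against 1.41 and 1.29 FPKM, and did not overlap with Ddah1, its next neighbour.

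Nos3, which encodes endothelial nitric oxide synthase (chromosome 5, 24364816 to 24384474, GRCm38.p6), was the most abundant synthase RNA. It was measured at 17.07, 16.28 and 15.13 FPKM under VNS-TAC (libraries 1, 2 and 3 in order, here and throughout), against 21.18, 20.86 and 17.53 FPKM under Ctrl-TAC. The VNS-TAC values were close together and all below the lowest Ctrl-TAC library, Ctrl-TAC 3. The means were 16.2 ± 0.98 and 19.9 ± 2.02 FPKM (SD, n = 3), and the log2 fold change was -0.28 ± 0.13 (SE), with a limma adjusted p of 0.346 and a 95% interval of -0.57 to 0.02. The groups overlapped once the libraries were rescaled by size factors (log2 fold change -0.18) or by quantiles (-0.20), or with the trend on gene length removed (-0.22).

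Endothelial markers were set beside Nos3. Of 10 endothelial genes, all of them detected, 8 had a log2 fold change below 0, and the median of the list was -0.28. No gene of the list passed the adjusted threshold in limma, and 3 were lower at an unadjusted p under 0.05 (0 with size factors). The summed FPKM of the list was 316 to 382 under VNS-TAC, against 377 to 432 under Ctrl-TAC. Of the 2 most abundant, Egfl7 was at 69.42, 67.13 and 62.67 FPKM against 87.63, 87.25 and 78.67, whereas Pecam1 overlapped, at 64.29 to 74.96 against 66.32 to 73.04. Less the mean of the endothelial list, Nos3 stood at -0.77, -0.72 and -0.74 (log2) across VNS-TAC 1, 2 and 3, against -0.66, -0.71 and -0.73 across the Ctrl-TAC libraries. On this scale the groups overlapped and differed by -0.04 (2-sided exact permutation p = 0.2, adjusted p = 0.333 over the 10 such tests made). In bulk tissue, fewer cells of a type and less RNA per cell cannot be told apart.

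Nos1, the neuronal synthase, also present in cardiomyocytes (chromosome 5, 117866839 to 117958840), had the largest relative difference of the 10 at the lowest level. It was listed at 0.02, 0.04 and 0.01 FPKM under VNS-TAC, against 0.21, 0.17 and 0.16 FPKM under Ctrl-TAC. Each VNS-TAC value lay far below each Ctrl-TAC value. With the approximate depths and an exon length of 11151 bases, these values stand for about 3.7, 6.5 and 1.7 fragments against 34.9, 26.5 and 27.3, so counting error in the VNS-TAC libraries was large. The VNS-TAC mean was 0.13 times the Ctrl-TAC mean. The log2 fold change was -0.21 ± 0.03 (SE) with a pseudocount of 1, which compresses such low values, and -1.19 with 0.1, at limma adjusted p of 0.162 and 0.196 in fits with no filter. The exact permutation test of the single gene gave 0.1, the smallest p that 3 libraries against 3 allow. With the trend on gene length removed the difference was -0.07 and the groups overlapped. That trend was fitted over all genes on log2(FPKM + 1), where Nos1 ran only from 0.014 to 0.275. A small shift can therefore hide the difference, and this value does not settle whether length plays a part.

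Nos2, the inducible synthase (chromosome 11, 78920787 to 78960226), showed no separation of the groups. It was at 3.70, 3.35 and 2.96 FPKM under VNS-TAC, against 4.20, 2.94 and 3.07 FPKM under Ctrl-TAC, so that the highest and the lowest value were both from Ctrl-TAC. The log2 fold change was -0.01 ± 0.16 (SE), with a 95% interval of -0.38 to 0.35 (limma adjusted p = 0.971), and its sign changed between scalings. Markers of inflammatory cells did not move one way: all 7 macrophage genes had log2 fold changes below 0 (4 with size factors, 6 after quantile normalization) with overlapping summed FPKM (116 to 230 against 166 to 175), while the 4 neutrophil genes tested were all higher without overlap, with summed FPKM of the 7-gene list at 45.8 to 100.3 against 1.52 to 5.04. Their part in the Nos2 values was not tested.

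As a share of the FPKM of the 3 synthase genes, Nos3 made up 82.1%, 82.8% and 83.6% across VNS-TAC 1, 2 and 3, against 82.8%, 87.0% and 84.4% under Ctrl-TAC, and Nos2 took most of the rest. The share of Nos1 was 0.055% to 0.203% in VNS-TAC and 0.709% to 0.821% in Ctrl-TAC. Rescaling a library by 1 factor leaves such shares as they are, but quantile normalization does not.

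Ddah1 and Ddah2 differed from each other in how they varied. Ddah1 (chromosome 3, 145758692 to 145894277) encodes a hydrolase of asymmetric dimethylarginine. It was at 2.28, 1.29 and 0.67 FPKM under VNS-TAC, against 3.13, 2.78 and 2.51 FPKM under Ctrl-TAC. All VNS-TAC values were below all Ctrl-TAC values, and they spread widely, with VNS-TAC 3 the lowest. The means were 1.41 ± 0.81 and 2.81 ± 0.31 FPKM (SD, n = 3), so that the VNS-TAC mean was 0.504 times that of Ctrl-TAC. In limma the log2 fold change was -0.71 ± 0.24 (SE), with a limma adjusted p of 0.264 and an unadjusted p of 0.0210. It was -0.47 without VNS-TAC 3 and -0.96 without VNS-TAC 1, and the groups overlapped after rescaling by size factors or quantiles or with the GC trend removed (-0.63, -0.51 and -0.60).

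Ddah2 (chromosome 17, 35059035 to 35062099), its paralogue and the more abundant RNA, was at 25.65, 19.07 and 12.53 FPKM under VNS-TAC, against 23.57, 19.78 and 22.39 FPKM under Ctrl-TAC. VNS-TAC 1 was the highest and VNS-TAC 3 the lowest of the 6 libraries, so the groups overlapped. The log2 fold change was -0.24 ± 0.24 (SE), with a 95% interval of -0.80 to 0.32, and 0.017 without VNS-TAC 3. Ddah1 made up 8.16%, 6.34% and 5.08% of the summed FPKM of both genes across VNS-TAC 1, 2 and 3, against 11.7%, 12.3% and 10.1% under Ctrl-TAC. That share was lower in every VNS-TAC library. It does not change when a library is rescaled by 1 factor, but after quantile normalization the log2 fold changes of Ddah1 and Ddah2 were closer, at -0.51 and -0.18 against -0.71 and -0.24 as deposited. The 2 genes also differ in GC content (48.3% and 59.4%) and exon length (3983 and 1593 bases), so a trend on either can move the share. The log2 fold changes were -0.60 and -0.28 with the GC trend removed, and -0.65 and -0.26 with the length trend removed. The share was computed after the values were seen and was not tested. Less the mean of the cardiomyocyte list, Ddah1 differed by -0.79 on the log2 scale, VNS-TAC being lower without overlap (exact permutation p = 0.1, adjusted p = 0.25). Set beside the same list, Nos1 differed by -0.29, also without overlap (exact permutation p = 0.1, adjusted p = 0.25). Pde3a differed by -0.18 with overlap (exact permutation p = 0.7, adjusted p = 0.778). The pseudocount of 1 compresses these genes more than the far more abundant cardiomyocyte markers. Of the 9 cardiomyocyte genes, 6 had log2 fold changes above 0 and 3 below, with a median of 0.24. The 1 gene at an unadjusted limma p under 0.05 was lower. Their list deviated from the Ctrl-TAC mean by 0.19, 0.18 and -0.12 across VNS-TAC 1, 2 and 3. Its summed FPKM was 45989 to 58380 under VNS-TAC, against 42013 to 44371 under Ctrl-TAC. Of the 2 most abundant, Myl2 overlapped, at 9603.75 to 16960.42 against 11536.07 to 12927.73 FPKM, and Tnnt2 was higher without overlap. All 7 fibroblast genes had log2 fold changes below 0, with a median of -0.34. Their list deviated from the Ctrl-TAC mean by -0.40, -0.32 and -0.79 across VNS-TAC 1, 2 and 3. Ddah1 deviated by -0.212, -0.73 and -1.185. Both were lowest in VNS-TAC 3, but VNS-TAC 1 and 2 stood in reverse order. Of the most abundant fibroblast genes, Gsn was at 608.89, 823.42 and 357.2 FPKM across VNS-TAC 1, 2 and 3, against 693.1 to 745.77 FPKM under Ctrl-TAC. Dcn was at 151.6, 240.79 and 387.71 against 256.82 to 285.31 FPKM, highest in VNS-TAC 3, where Ddah1 was lowest. For both, the groups overlapped. The part of the fibroblast genes in the Ddah1 values was not tested.

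Prkg1 (chromosome 19, 30564487 to 31765268), the cyclic GMP-dependent kinase of smooth muscle and other cells, had the smallest unadjusted p of the members that passed the filter. It was at 0.83, 1.47 and 1.56 FPKM under VNS-TAC, against 3.86, 2.12 and 2.58 FPKM under Ctrl-TAC. The groups did not overlap, and VNS-TAC 1 was the lowest and Ctrl-TAC 1 the highest. The means were 1.29 ± 0.40 and 2.85 ± 0.90 FPKM (SD, n = 3), so that the VNS-TAC mean was 0.451 times that of Ctrl-TAC. On the log2 scale the change was -0.74 ± 0.21 (SE), with an unadjusted p of 0.00944 and a limma adjusted p of 0.244. The groups stayed apart under the 3 other scalings run and with the GC or length trend removed. Removing the GC trend reduced the log2 fold change to -0.49. The GC content of the Prkg1 transcripts was 43.2%, against a median of 50.6% over the genes tested.

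Smooth muscle genes also had lower values. All 6 of the smooth muscle list had log2 fold changes below 0 (5 after quantile normalization), with a median of -0.58 and summed FPKM of 77.5 to 132.5 in VNS-TAC and 117.6 to 226.6 in Ctrl-TAC. Smtn and Acta2, the most abundant, were at 22.48 to 52.44 against 53.41 to 61.28 FPKM and at 23.25 to 51.59 against 31.47 to 81.37 FPKM. The list was highest in Ctrl-TAC 2, where Prkg1 was the lowest of its group. All 6 pericyte genes also had log2 fold changes below 0, with a median of -0.22. Their most abundant, Rgs5 and Abcc9, were at 40.9 to 91.72 against 78.91 to 123.74 and at 23.5 to 36.83 against 37.36 to 45.12 FPKM. Less the mean of the smooth muscle list, Prkg1 overlapped between the groups (difference -0.09, exact permutation p = 1, adjusted p = 1). Less that of the pericyte list it differed by -0.47, also with overlap (exact permutation p = 0.2, adjusted p = 0.333). The pseudocount of 1 compresses Prkg1 more than these more abundant markers. The cause of the Prkg1 difference was not tested.

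Pde5a (chromosome 3, 122729158 to 122859374), the cyclic GMP-selective enzyme that sildenafil inhibits, was at 0.18, 0.66 and 0.48 FPKM under VNS-TAC, against 0.82, 0.83 and 0.83 FPKM under Ctrl-TAC. The Ctrl-TAC values were almost equal, and all VNS-TAC values were lower, VNS-TAC 1 most. They stand for about 29.3, 94.3 and 74.0 fragments against 120.3, 114.1 and 124.8. The log2 fold change in the fit with no filter was -0.36 ± 0.13 (SE), with an unadjusted p of 0.0273 and a limma adjusted p of 0.318, and it was -0.22 without VNS-TAC 1. The exact permutation p was 0.1 (adjusted p = 0.25). The groups remained apart under the 3 other scalings run and with the GC or length trend removed. Less the mean of the smooth muscle list, Pde5a differed by 0.29 on the log2 scale (exact permutation p = 0.6, adjusted p = 0.778). Less that of the pericyte list it differed by -0.08 (exact permutation p = 0.7, adjusted p = 0.778). On both scales the groups overlapped. As for Prkg1, the pseudocount of 1 compresses Pde5a more than these more abundant markers. The cause of the Pde5a difference was not tested.

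The other cyclic GMP-selective enzyme, Pde9a (chromosome 17, 31386105 to 31476309), did not follow Pde5a. It was at 2.74, 2.36 and 3.75 FPKM under VNS-TAC, against 2.65, 2.48 and 2.29 FPKM under Ctrl-TAC, with VNS-TAC 3 highest. The log2 fold change was 0.17 ± 0.16 (SE), with a 95% interval of -0.21 to 0.55 (limma adjusted p = 0.608). It was 0.031 without VNS-TAC 3 and 0.28 without VNS-TAC 2. After quantile normalization its 3 VNS-TAC values lay above those of Ctrl-TAC, at a log2 fold change of 0.33. The difference between Pde5a and Pde9a in response was not tested.

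Pde2a (chromosome 7, 101421691 to 101512829), the phosphodiesterase stimulated by cyclic GMP, was at 20.80, 23.84 and 26.48 FPKM under VNS-TAC, against 24.80, 24.70 and 19.85 FPKM under Ctrl-TAC. The ranges overlapped almost wholly, and the log2 fold change was 0.04 ± 0.15 (SE), with a 95% interval of -0.30 to 0.38. Pde3a (chromosome 6, 141249269 to 141506862), the target of milrinone, was at 6.40, 9.68 and 12.62 FPKM under VNS-TAC, against 9.37, 11.27 and 9.44 FPKM under Ctrl-TAC. The VNS-TAC libraries lay on either side of Ctrl-TAC, with a log2 fold change of -0.10 ± 0.23 (SE) and a 95% interval of -0.63 to 0.43. For these genes the intervals still allow differences in either direction.

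**Figure D2:**
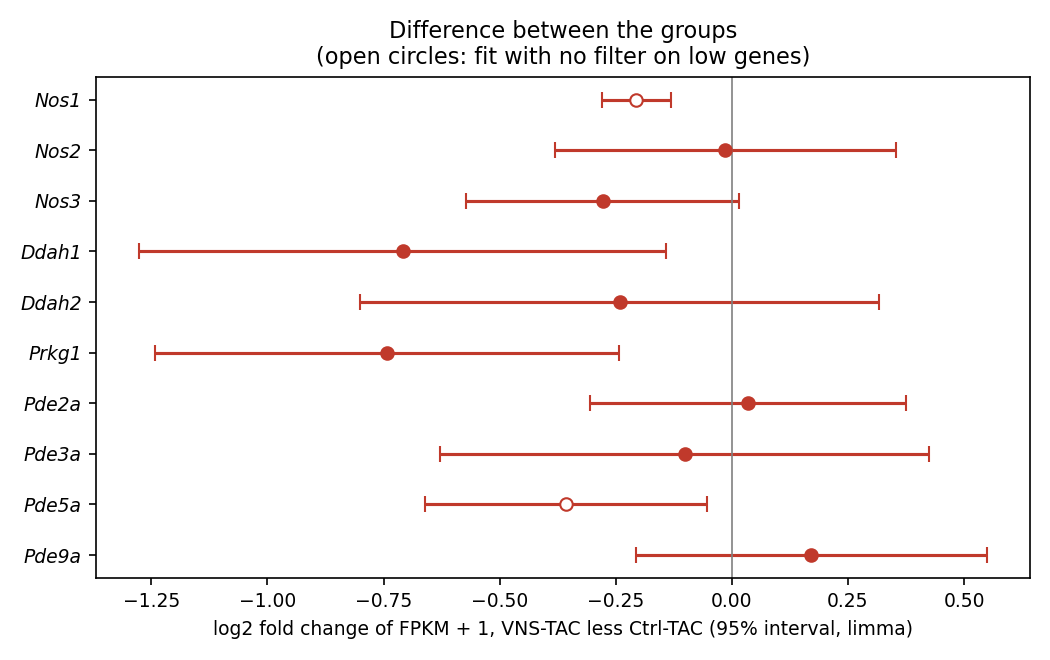
Log2 fold change of FPKM + 1 between VNS-TAC and Ctrl-TAC (horizontal axis) for each of the 10 genes, with its 95% interval from limma. Filled circles are from the fit over genes whose mean reached 1 FPKM, and open circles (Nos1 and Pde5a) from the fit with no filter. The intervals of Nos1, Ddah1, Prkg1 and Pde5a lie below 0 before adjustment over all genes, and that of Nos3 reaches 0.02.

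The members varied among the VNS-TAC libraries along different lines. VNS-TAC 3 held the lowest of the 6 values for Nos1, Nos3, Ddah1 and Ddah2 and the highest for Pde2a, Pde3a and Pde9a. VNS-TAC 1 held the lowest for Prkg1, Pde3a and Pde5a and the highest for Ddah2, and VNS-TAC 2 held no extreme value. The 3 members lowest in VNS-TAC 1 are those of lowest GC content, at 43.2% for Prkg1, 44.7% for Pde3a and 45.9% for Pde5a, and Ddah2 has the highest, 59.4%. They are also among the 4 longest, with 10861, 12737 and 9831 exon bases (Nos1 has 11151), and Ddah2 is the shortest, with 1593. Deviations in VNS-TAC 1 also followed exon length (Spearman's rho over genes -0.388, against 0.025 to 0.233 elsewhere). Pde3a went from -0.10 to 0.11 with the GC trend removed and to 0.10 with the length trend removed. The values of Pde5a were -0.24 and -0.23 and those of Prkg1 -0.49 and -0.56, so GC content and length cannot be told apart here. Blood genes separated the same libraries, with summed FPKM of 25.1 to 1503 within VNS-TAC and 182.6 to 577.7 within Ctrl-TAC. Hba-a1 was at 583.82, 124.7 and 14.34 FPKM across VNS-TAC 1, 2 and 3, and Hbb-bs at 534.77, 103.56 and 7.72, in the same descending order as Nos2, Nos3, Ddah1 and Ddah2. Their part in these values was not tested.

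**Figure D3:**
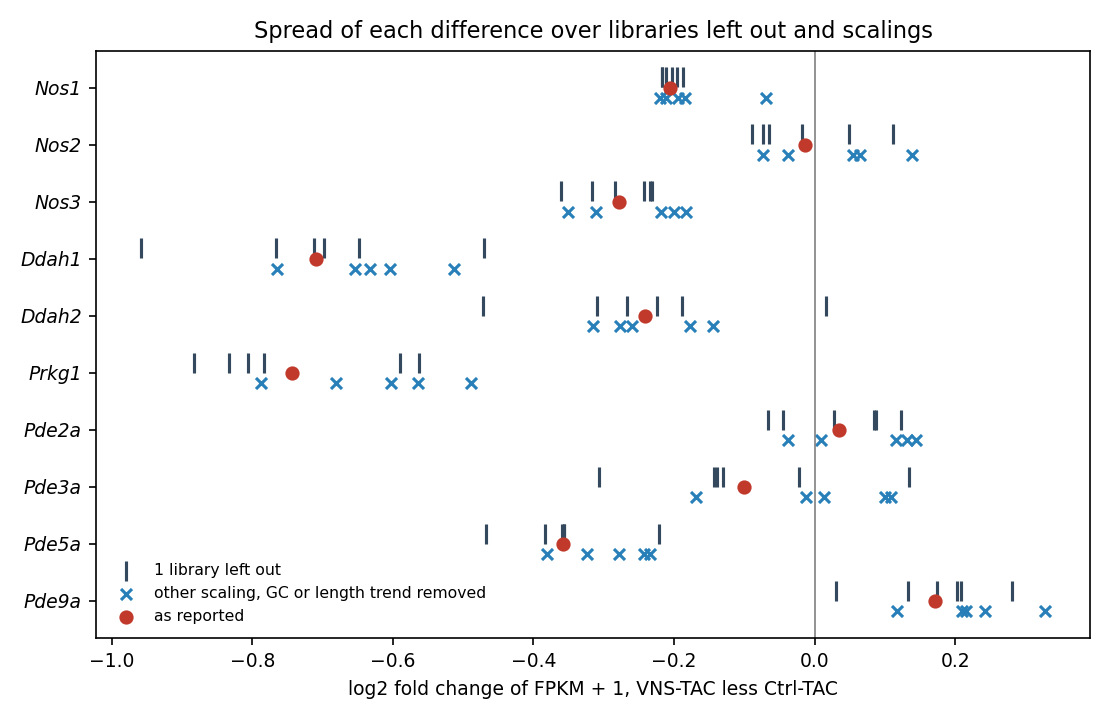
Log2 fold change of FPKM + 1 between VNS-TAC and Ctrl-TAC (horizontal axis) for each gene as reported (red), with each library left out in turn (dark ticks) and with other scalings or with the GC or length trend removed (blue crosses). Nos1, Nos3, Ddah1, Prkg1 and Pde5a stay below 0 throughout, and Nos2, Ddah2, Pde2a and Pde3a have values on both sides of 0.

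In all alternatives run, 16 to 18 per gene, the values of Nos1, Nos3, Ddah1, Prkg1 and Pde5a stayed below 0. Ddah1 was the only member to pass the adjusted threshold in any of them, with limma array weights (log2 fold change -0.76, adjusted p = 0.0150). Over its 17 alternatives the adjusted p ran from 0.0150 to 0.711. The fit with array weights gave VNS-TAC 2 a weight of 2.82 and VNS-TAC 1 and 3 weights of 0.246 and 0.247, so it leaned on VNS-TAC 2. In the same fit 1016 of the 11422 genes tested passed the adjusted threshold, 759 of them lower, so passing it was not particular to Ddah1.

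Around these genes, 63 other genes of the pathway were listed, of which 62 were in the table and 48 were tested. None passed the adjusted threshold in limma. At an unadjusted p under 0.05, 9 were lower and 3 higher, where 11.3% of all genes tested were lower and 3.79% higher. The counts were 4 lower and 3 higher with size factors, 6 and 4 after quantile normalization, and 12 and 1 at the same sum. Under the 3 other scalings the median of all genes tested lay at 0.00 (size factors), 0.01 (quantiles) and -0.15 (same sum), and list counts below name the scalings that turn a median or a direction. The median log2 fold change of these 48 genes was -0.16, beside -0.17 for the 8 tested members and -0.08 for all genes tested.

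**Figure D4:**
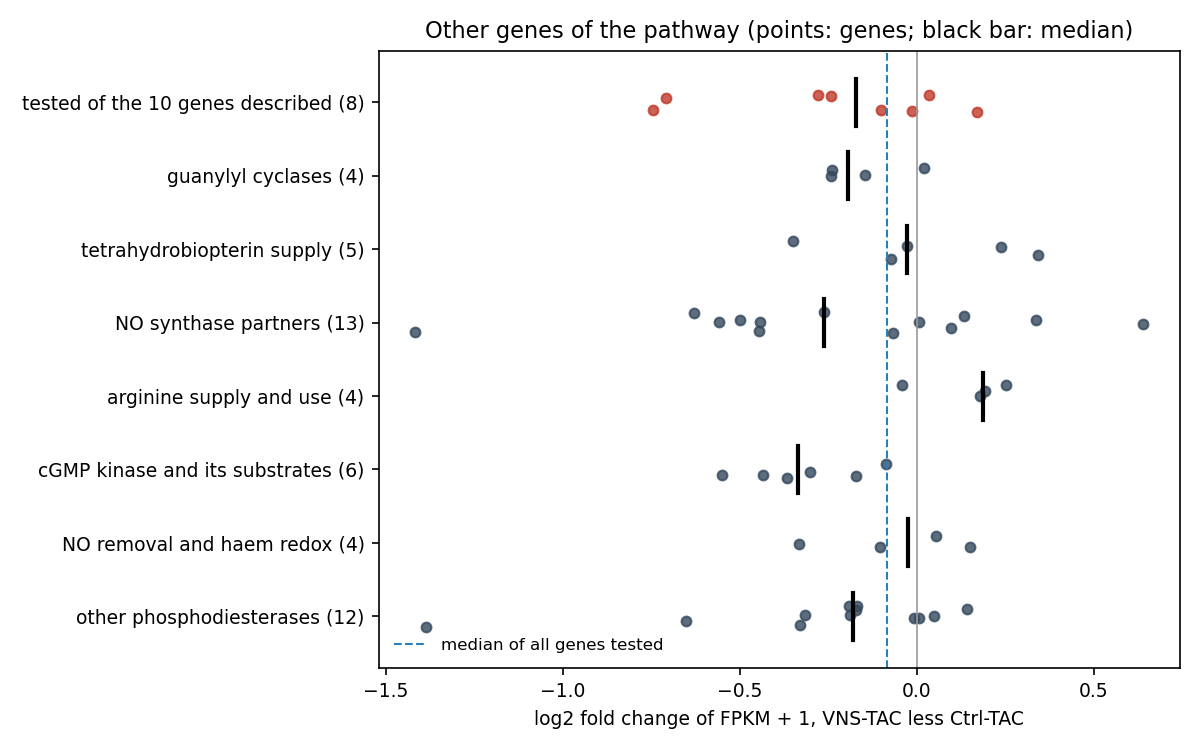
Log2 fold change of FPKM + 1 between VNS-TAC and Ctrl-TAC (horizontal axis) for the tested members (red) and for the other tested genes of the pathway by list, with the number of genes in brackets. Points are genes, black bars the median of a list, and the dashed line the median of all genes tested, -0.08. As deposited, all 6 tested genes of the list of cyclic GMP kinase substrates lie below 0 (5 after size factors or quantile normalization), and the lowest of the partners of the synthases is at -1.42.

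The guanylyl cyclases make the cyclic GMP that these enzymes respond to. Of 4 tested, 3 were below 0 (4 at the same sum), with a median of -0.19. The receptor cyclase Npr2 was at 18.73, 21.34 and 20.25 FPKM under VNS-TAC, against 23.82, 23.41 and 24.46 FPKM under Ctrl-TAC, without overlap, at a log2 fold change of -0.24 (limma adjusted p = 0.351). Npr1, the receptor for atrial natriuretic peptide, was at 10.5 ± 1.09 against 11.7 ± 0.68 FPKM (SD, n = 3). Gucy1b1, a subunit of the soluble cyclase, was at 5.60 ± 1.05 against 6.75 ± 0.69 FPKM. For both, the groups overlapped.

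Of the enzymes that supply tetrahydrobiopterin, the synthase cofactor, Pts and Qdpr lay apart in opposite directions. Pts, which acts in its synthesis, was at 21.1 ± 1.73 against 27.2 ± 3.53 FPKM (SD, n = 3), and Qdpr, which regenerates it, at 57.1 ± 4.55 against 44.7 ± 1.79 FPKM. Their limma adjusted p were 0.306 and 0.263. Spr, the last enzyme of the synthesis, overlapped, at 73.6 to 101.3 against 67.4 to 75.8 FPKM. The median of the 5 tested genes was -0.03, but 0.06 with size factors and 0.10 after quantile normalization, where Pts overlapped as well.

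The 13 proteins that bind or regulate the synthases held the widest range. At an unadjusted p under 0.05, 5 were lower and 2 higher, beside the 11.3% and 3.79% of all genes. With size factors 2 were lower and 2 higher, and at the same sum 7 and 1. Hsp90aa1, a chaperone that binds Nos3, was at 16.61, 31.03 and 27.69 FPKM under VNS-TAC, against 59.6, 99.02 and 49.68 FPKM under Ctrl-TAC. That is a log2 fold change of -1.42 ± 0.31 (SE), with a limma adjusted p of 0.190. Its paralogue Hsp90ab1 was at 600.1 ± 37.8 against 848 ± 34.5 FPKM (SD, n = 3). Nosip and the caveolin gene Cav1, named after their values were seen, were at 22.08, 23.87 and 28.38 against 19.41, 18.25 and 20.29 FPKM and at 95.12, 91.17 and 63.75 against 108.39, 105.86 and 121.83 FPKM, each without overlap as deposited (Cav1 overlapped with size factors, Nosip after rescaling to the same sum).

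Genes of arginine supply and use were near or above 0, with a median of 0.19 over 4 tested. Of these, 3 were above 0 (4 with size factors or quantile normalization). Slc7a1, a cationic amino acid transporter, was at 9.23 ± 0.36 against 8.04 ± 0.46 FPKM (SD, n = 3). Prmt1, which methylates arginine residues and so gives rise to asymmetric dimethylarginine, was at 59.9 ± 4.36 against 52.1 ± 2.10 FPKM, both without overlap except after rescaling to the same sum. Asl, which makes arginine, overlapped at 5.49 ± 1.84 against 4.34 ± 0.60 FPKM. The lowest limma adjusted p of this list was 0.43. The arginases Arg1 and Arg2, named after their values were seen, were at or near 0, with no value above 0.13 FPKM.

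All 6 tested genes of the list of the second kinase Prkg2 and kinase substrates were below 0 (5 of 6 with size factors or quantile normalization), with a median of -0.33, while Prkg2 itself was at 0.16 FPKM or less. Itpr1, an inositol trisphosphate receptor, was at 3.35, 5.25 and 5.11 FPKM under VNS-TAC, against 6.54, 7.16 and 5.67 FPKM under Ctrl-TAC, at a log2 fold change of -0.43 (limma adjusted p = 0.320). Ppp1r12a, the targeting subunit of myosin phosphatase, was at 4.09, 7.84 and 9.07 FPKM against 10.20, 12.52 and 8.41 FPKM. Irag1, whose product links the kinase to that receptor, was at 3.20 ± 0.71 against 4.43 ± 1.02 FPKM (SD, n = 3). In the last pair the groups overlapped. VNS-TAC 1 held the lowest value of all 3 genes, as for Prkg1. Of the 4 genes of nitric oxide removal and haem redox, 2 were above and 2 below 0 (1 and 3 at the same sum). Their median of -0.02 became 0.08 with size factors. Adh5, Cyb5r3 and Cygb all overlapped, with Cygb at 56.3 ± 11.1 against 71.2 ± 15.4 FPKM.

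Of 23 phosphodiesterase genes in the table, Pde2a ranked second by FPKM in both groups after Pde6d, which encodes a prenyl-binding protein and not an enzyme of this kind. Pde3a ranked 8 in Ctrl-TAC and 6 in VNS-TAC, Pde9a 13 and 12, and Pde5a 17 in both. Of the 12 other phosphodiesterases tested, 9 were below 0 (8 with size factors, 7 after quantile normalization, 11 at the same sum), with a median of -0.18. Pde7b, selective for cyclic AMP, was at 1.38, 2.73 and 0.97 FPKM under VNS-TAC, against 6.66, 6.76 and 4.25 FPKM under Ctrl-TAC. Its log2 fold change of -1.39 ± 0.27 (SE) exceeded in size that of each member at the same pseudocount (limma adjusted p = 0.187). Pde4b, also selective for cyclic AMP, was at 6.73 ± 1.45 against 11.1 ± 1.33 FPKM (SD, n = 3) without overlap. Pde3b, the paralogue of Pde3a, was at 1.11 ± 0.46 against 1.62 ± 0.31 FPKM with overlap. Pde10a and Pde11a, which hydrolyse both nucleotides and were named after their values were seen, missed the filter, at 0.20 to 0.36 against 0.59 to 0.72 and at 0.06 to 0.28 against 0.47 to 0.57 FPKM.

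The genes closest in profile to the 3 tested members with the smallest p were sought by the root mean square difference of log2 values, each less its mean, over the 6 libraries. For Prkg1 they were Serf1, Eif2ak2 and C330007P06Rik (differences of 0.12, 0.12 and 0.15, against a median of 0.45 over all genes). For Ddah1 they were Dbn1, Dchs1 and Sipa1 (0.04, 0.05 and 0.06, against 0.49). For Nos3 they were N4bp3, Cybc1 and Ppp2r2a (0.03, 0.04 and 0.04, against 0.25). Dbn1, for instance, was at 7.37, 4.77 and 3.03 FPKM under VNS-TAC, against 7.75 to 9.01 FPKM under Ctrl-TAC, the same order of libraries as Ddah1.

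Some of these values could hold reads of other genes, since the use of strand in the counting is not given in the sources used here. In GENCODE M21, exons of Nos1, Nos3, Pde3a, Pde5a and Pde9a share bases with genes on the opposite strand, 1040 bases between Nos3 and Gm15587, 294 between Nos3 and Atg9b, 741 between Pde3a and Gm28523, 268 between Nos1 and Gm26995 and 55 between Pde5a and 4930447N08Rik. Pde2a shares 3955 exon bases with Gm45837, a gene model on the same strand. Ddah1, Ddah2, Prkg1 and Nos2 share none.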

How the data were processed

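Heart mRNA of 3 VNS-TAC and 3 Ctrl-TAC libraries was enriched on oligo-dT magnetic beads (per the labels' protocols). The authors deposited FPKM values to 2 decimals, per the file headers. The submitters' processing notes name GRCm38, DESeq (version 1.8.3), HISAT and featureCounts (version 1.5.0-p3) without their roles, and the annotation is not given in the sources used here. Groups came from the sample titles, since a treatment tag reads VNS for the controls too. Ctrl-TAC columns carry the library names of the labels. For VNS-TAC, column numbers 1 to 3 face library names numbered 4 to 6, so each column was assigned to the group and to no sample.

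Symbols came from a RefSeq table (GRCm38.p6; 17890 IDs) and GENCODE M21 (15 IDs), and 114 IDs had none. Values were tested after log2(FPKM + 1), on which changes of low genes come out too small, with limma 3.58.1 in R 4.3.3 (intensity trend, Benjamini-Hochberg adjustment, threshold 0.05), over genes whose mean reached 1 FPKM, and with no such filter for Nos1 and Pde5a. Single values used 2-sided exact permutation tests over 20 assignments. Depth was estimated from the steps of low FPKM values in genes with 1 transcript model and entered no test. The periodicity behind it was 0.361 to 0.425, and 0.298 to 0.377 at the next best depth, so the estimate is rough. Python 3.11.15, pandas 2.3.3, numpy 2.4.6 and matplotlib 3.10.9 were used, and the fit was tested on simulated data.

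The text names all 10 members, the 3 genes of each pathway list with the smallest p, the 2 most abundant genes of a marker list set beside a member and the 3 genes most like a member. Some genes that this rule names are not reported here. Members and lists were chosen with earlier results of these data known. Alternatives were other pseudocounts, filters, scalings and variance models, array weights, each library left out, and, chosen after seeing the data, the removal of GC and length trends by lowess.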

Additional observations from a re-analysis of the deposited data

How the results depend on the processing

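Of 172 member values under alternatives, 157 kept their direction and side of the threshold, 14 changed sign and 1 passed the threshold; none of the sign changes concerned Nos1, Nos3, Ddah1, Prkg1 or Pde5a. The cause of these changes was not tested. Ddah1 passed with array weights (log2 fold change -0.76, limma adjusted p = 0.0150), a fit in which 1016 of 11422 genes passed. Nos2 was 0.065 (size factors), 0.14 (quantile normalization) and 0.054 (length trend removed), Pde2a -0.038 after rescaling to the same sum, Pde3a 0.013 with quantile normalization, 0.11 with the GC trend and 0.10 with the length trend removed, and Pde9a -0.021 with array weights. With 1 library left out, log2 fold changes ran from -0.089 to 0.11 for Nos2, -0.47 to 0.017 for Ddah2, -0.066 to 0.12 for Pde2a, -0.31 to 0.13 for Pde3a and, with no change of sign, 0.031 to 0.28 for Pde9a.

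The number of genes past the adjusted threshold was 0 as reported, 1 with a filter at 5 FPKM, 2 with size factors, 2 with quantile normalization, 2 with the GC trend removed, 1016 with array weights and 0 to 3 with a library left out (3 without VNS-TAC 3 or without Ctrl-TAC 1), all in limma. At an unadjusted p under 0.05 there were 1719, 3441 with array weights and 766 to 2515 with a library left out (766 without Ctrl-TAC 2, 835 without Ctrl-TAC 1). Members at that p numbered 2 of 8, beside 1719 of 11422 genes. With no filter they numbered 5 of 10, beside 2405 of 17655 genes, and with a filter at 5 FPKM 0 of 4, beside 1163 of 7654. After quantile normalization 1 of 8 was at that p, beside 1666 of 11422 genes. With a library left out there were 1 to 4, with 4 reached without VNS-TAC 1, where 2515 of 11422 genes were at that p. Nos2, Ddah1, Prkg1 and Pde9a had no value with the filter at 5 FPKM. Nos1 ranged most with the scale, from -1.19 with a pseudocount of 0.1 to -0.07 with the length trend removed. No paired analysis was possible because the VNS-TAC columns could be tied to the group but not to single samples. The replicate block was therefore not run. Depth limits Nos1 most.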
